A study of Mus musculus with 27 samples.

Results

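The peroxisome proliferator-activated receptors (PPARs) and the retinoid X receptors (RXRs) are nuclear receptors, transcription factors that bind a fatty molecule and switch genes on or off. Their 6 genes, Pparg, Ppara, Ppard, Rxra, Rxrb and Rxrg, were followed in mature 3T3-L1 adipocytes through 48 h of rosiglitazone. A gene was taken from the probe sets that carried its symbol alone, and each of the 6 had 1 such probe set and 0 shared ones, so 6 of the 18781 genes measured are described. Rosiglitazone is an antidiabetic drug that binds and activates PPARγ, the protein of Pparg. The study followed the mRNA of these cells over the treatment, and the comparison made here is how the mRNA of the drug's own receptor, its relatives and its partners moved.

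3T3-L1 is a mouse preadipocyte line that becomes fat cells in culture. All groups had been differentiated the same way, with dexamethasone, insulin and isobutylmethylxanthine, then insulin, then plain growth medium. The 27 arrays formed 9 groups of 3: cells without treatment at time 0, and cells given 1 µM rosiglitazone, dissolved in DMSO, for 30 min, 1 h, 2 h, 6 h, 12 h, 24 h, 36 h or 48 h. Untreated cells at time 0 were the control at every time, and 0 samples were labelled as given DMSO, so drug, solvent, handling and time in culture cannot be told apart. All arrays came from 1 cell line, and the labels do not say whether replicates were separate cultures, so the p-values speak only for the scatter among these arrays, part or all of which may be technical.

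PPARs act as heterodimers with RXRs. The pair sits on DNA at direct repeats of the hexamer AGGTCA with 1 base between them, and it can be activated through the ligand of either partner. PPARγ is required to make and keep fat cells and drives genes of fat storage, PPARα drives fatty acid oxidation and is best known in liver, and PPARδ is found in most tissues and drives fatty acid use in muscle. Of the RXRs, RXRα and RXRβ are widespread, whereas RXRγ is known mainly from muscle and brain. RXRs also pair with the receptors for retinoic acid, vitamin D, thyroid hormone and oxysterols, which share them with the PPARs.

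Pparg lies on chromosome 6 (chr6:115360879-115490404 in GRCm38.p6) and Rxrg on chromosome 1 (chr1:167598362-167639623). Ppara is at chr15:85734910-85806851, Ppard at chr17:28232754-28301469, Rxra at chr2:27676445-27763319 and Rxrb at chr17:34031812-34038403. Mouse Pparg has alternative promoters, and the promoter furthest downstream gives the fat cell isoform PPARγ2. Its probe set is annotated to the transcripts of both isoforms, so the values do not separate them. The promoter windows of Pparg and Rxrg are shown because these genes had the largest called changes among the 6 at 2 h. They reach from 250 bases before to 50 after a transcription start, on the plus strand, from RefSeq (GRCm38.p6). Capitals mark matches, on either strand, to the receptor hexamer AGGTCA or to TTGCNNAA, a pattern of C/EBP factors, which act upstream of Pparg in fat cell formation. Pparg windows 1, 2 and 3 are chr6:115360894-115361193, chr6:115362099-115362398 and chr6:115421816-115422115, and Rxrg windows 1 and 2 are chr1:167598112-167598411 and chr1:167618015-167618314.
Pparg window 1: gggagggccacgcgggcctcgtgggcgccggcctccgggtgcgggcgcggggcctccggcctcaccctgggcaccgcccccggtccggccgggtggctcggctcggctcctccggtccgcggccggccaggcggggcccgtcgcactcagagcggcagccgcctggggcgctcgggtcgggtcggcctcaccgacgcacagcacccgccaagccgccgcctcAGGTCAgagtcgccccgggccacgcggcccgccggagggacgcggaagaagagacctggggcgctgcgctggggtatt
Pparg window 2: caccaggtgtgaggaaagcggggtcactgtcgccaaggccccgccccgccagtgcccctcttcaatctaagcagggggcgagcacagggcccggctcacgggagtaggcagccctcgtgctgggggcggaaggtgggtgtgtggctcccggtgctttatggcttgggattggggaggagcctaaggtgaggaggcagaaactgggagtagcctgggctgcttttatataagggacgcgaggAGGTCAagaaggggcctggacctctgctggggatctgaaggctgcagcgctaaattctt
Pparg window 3: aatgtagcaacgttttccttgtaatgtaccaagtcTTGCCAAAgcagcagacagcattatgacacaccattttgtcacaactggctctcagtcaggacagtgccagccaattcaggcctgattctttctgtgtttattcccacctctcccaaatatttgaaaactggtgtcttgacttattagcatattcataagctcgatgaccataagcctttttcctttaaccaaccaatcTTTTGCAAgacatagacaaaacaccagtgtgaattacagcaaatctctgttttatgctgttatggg
Rxrg window 1: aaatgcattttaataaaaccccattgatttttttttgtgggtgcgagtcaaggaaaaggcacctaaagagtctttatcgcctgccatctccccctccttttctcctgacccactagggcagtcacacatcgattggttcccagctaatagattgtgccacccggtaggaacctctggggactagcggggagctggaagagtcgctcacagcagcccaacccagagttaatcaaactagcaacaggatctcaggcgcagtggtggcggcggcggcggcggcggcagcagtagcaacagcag
Rxrg window 2: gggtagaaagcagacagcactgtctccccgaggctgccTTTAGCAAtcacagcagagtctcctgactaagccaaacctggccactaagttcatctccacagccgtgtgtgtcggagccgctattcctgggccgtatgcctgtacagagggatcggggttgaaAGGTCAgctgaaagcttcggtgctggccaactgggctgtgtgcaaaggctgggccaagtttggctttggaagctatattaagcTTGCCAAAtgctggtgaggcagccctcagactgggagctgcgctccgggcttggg

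Both upstream Pparg windows held 1 AGGTCA, whose first base lay at -28 and -9 from the start. The downstream Pparg window held TTGCNNAA at -215 and, on the other strand, at -16, and no AGGTCA. The second Rxrg window held AGGTCA at -88 and TTGCNNAA at -5 and, on the other strand, at -212, and the first held no match. Over the 11 windows of the 6 genes, 4 held AGGTCA, 2 held TTGCNNAA and 0 held the direct repeat AGGTCANAGGTCA. Of all 32851 promoter windows of this length, 16.3% held AGGTCA, 10.8% held TTGCNNAA and 0.0396% held the repeat. These are matches of letters, and binding was not measured here.

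Values below are log2 intensities, on which 1 unit is a doubling. Levels of the 6 receptor genes are not compared with each other. Markers, Ppara and dim probe sets are set against the level of other genes as a rough guide only. Changes are log2 fold changes ± SE from limma, with n = 3 arrays per group and p-values adjusted over 18781 genes. The words rose and fell are used of genes with an adjusted p below 0.05, which are also said to be called. Shares of all genes are of called genes, so they are no background for counts at an unadjusted p below 0.05. That unadjusted threshold is loose: at 2 h a limma p of 0.0447 (Ppara) had rank 3040. Array medians lay between 4.02 and 4.13, arrays of a group correlated at 0.995 to 0.998, and the number of arrays limits the precision. The labelled cell type had its markers: 7 of 8 adipocyte markers had means above 10, the exception being Lep at 4.47. Of the 8, 1 fell at 2 h and 2 at 48 h, beside 2.87% and 11.4% of all genes. Their summed log2 level was 86.1 to 87.1 in untreated cells, 85.4 to 85.8 at 2 h and 83.6 to 85.3 at 48 h. The 6 macrophage markers lay between 2.67 (Adgre1) and 4.97 (Cd68) and the 5 endothelial markers between 2.79 and 3.53, and no marker of either list was called at 2 h or 48 h, with 0 macrophage and 1 endothelial marker below an unadjusted p of 0.05 at 2 h and 0 of each at 48 h. Of the 7 measured preadipocyte and fibroblast markers, 6 had means above the median of all genes, the exception being Cd34 at 2.95. Vim was highest at 11.64, and the preadipocyte marker Dlk1 lay at 9.98. Of these 7, 1 fell at 2 h and 5 at 48 h, beside 2.87% and 11.4% of all genes. Their summed log2 level went from 60.25 to 60.42 in untreated cells to 59.2 to 59.7 at 2 h and 57.97 to 58.27 at 48 h. Since RNA was taken from whole cultures, a changed share of cells and a changed mRNA level per cell cannot be told apart, and the part of these markers in the receptor changes was not tested.

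The limma F-test over the 8 comparisons with untreated cells called all 6 receptor genes as changed over the course, beside 40.5% of all genes. The F was highest for Pparg (32.5, adjusted p = 1.48e-09), followed by Rxrg (17.4, adjusted p = 3.93e-07), and lowest for Ppard (5.81, adjusted p = 0.00151). The course call of Ppard ended in 2 of 10 other settings, with an F-test adjusted p of up to 0.0848. No receptor was called at 30 min, beside 0.0479% of all genes, or at 1 h, beside 0.990%. At an unadjusted p below 0.05 the counts were 1 and 2 of the 6, without a share of all genes to compare. At 2 h 3 of 6 were called, against a background of 5.91%: Rxrg rose (3.04% of all genes did), and Pparg and Ppard fell (2.87%). Later counts were 4 at 6 h (background 16.6%), 5 at both 12 h (18.9%) and 24 h (20.7%), and all 6 at 36 h (21.4%) and again at 48 h (24.0%, with 12.6% higher and 11.4% lower). From 36 h on Ppara, Rxrb and Rxrg were above untreated cells and Pparg, Ppard and Rxra below them. Each subfamily thus held genes that rose and genes that fell.

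**Figure D1:**
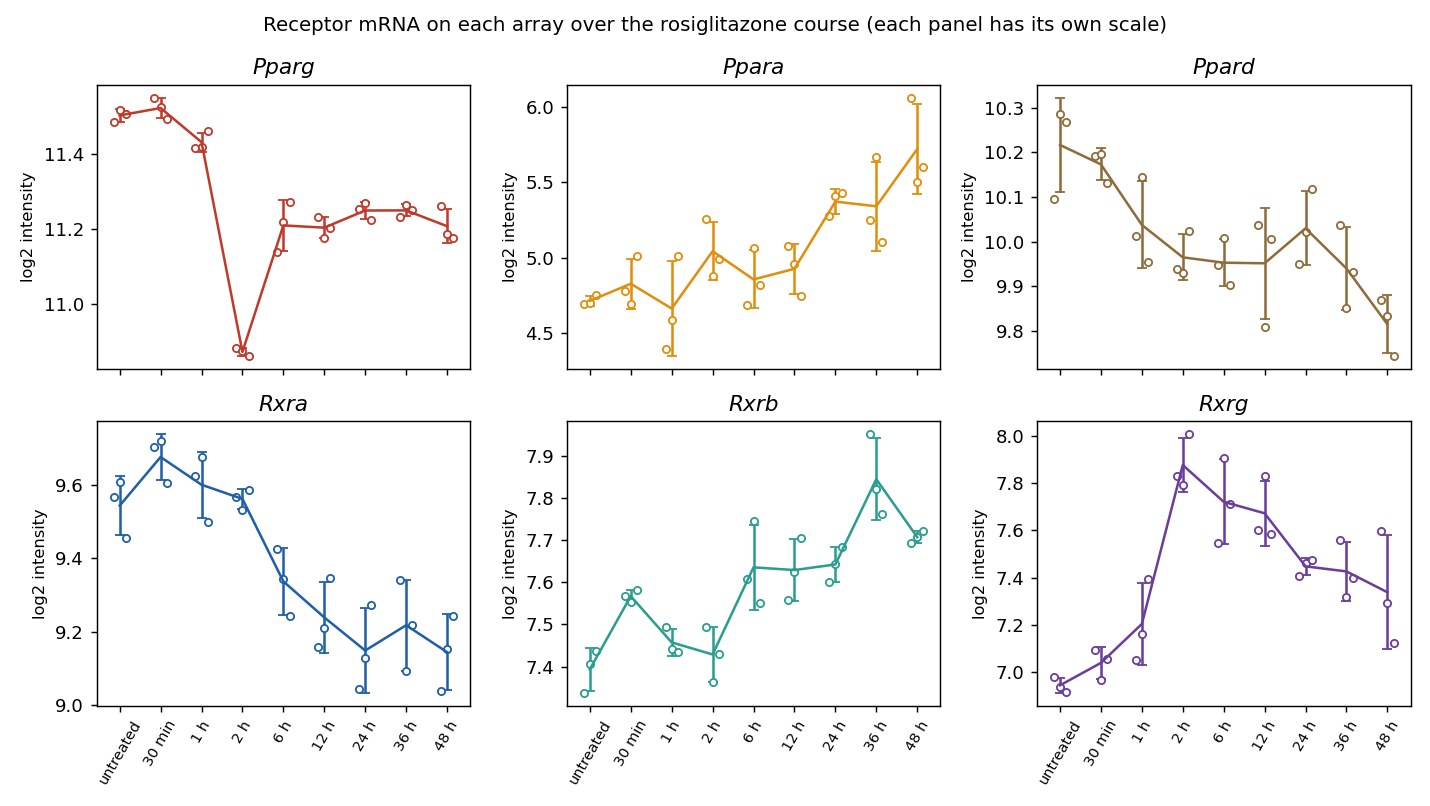
Log2 intensity of each receptor gene (y axis, a scale of its own in each panel) in untreated cells and at the 8 times after rosiglitazone (x axis). Points are the 3 arrays of a group and lines join group means; the Pparg arrays at 2 h lie below those of all other groups, and the Rxrg arrays at 2 h lie between 7.79 and 8.01.

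Pparg mRNA fell sharply between 1 h and 2 h and then rose part of the way back. Its intensities in untreated cells were 11.49, 11.52 and 11.51, with a mean of 11.50 ± 0.0165 (SD, n = 3). The 30 min arrays gave 11.55, 11.53 and 11.49, and the 1 h arrays 11.42, 11.42 and 11.46. At 2 h the values were 10.88, 10.87 and 10.86, a mean of 10.87 ± 0.0111 (SD, n = 3). Up to 1 h the arrays stayed within a narrow band near the untreated level, and the 2 h arrays lay below every array of the other 8 groups. At 6 h the arrays read 11.14, 11.22 and 11.27, and at 12 h 11.23, 11.18 and 11.20. The 24 h arrays read 11.25, 11.27 and 11.22, and the 36 h arrays 11.23, 11.26 and 11.25. At 48 h they read 11.26, 11.19 and 11.18, a mean of 11.21 ± 0.0459 (SD, n = 3). From 6 h to 48 h the 5 groups overlapped with their neighbours in level and all lay below the untreated arrays.

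The change of Pparg at 2 h was -0.63 ± 0.0493 (adjusted p = 4.41e-09), with a 95% confidence interval from -0.73 to -0.53, which is 35.5% lower than in untreated cells. It had rank 9 by p among the 18781 genes at that time. The step from 1 h to 2 h was -0.56 (adjusted p = 5.07e-07), and the step from 2 h to 6 h was 0.34 (adjusted p = 5.12e-05). On the log2 scale, 53.5% of the fall had been regained by 6 h, and at 48 h the figure was 53.1%. At 48 h Pparg was still lower by 18.6%, with a change of -0.30 (adjusted p = 5.55e-05). It was called at 6 of the 8 times, and in order of level 2 h stood alone at the bottom, the groups from 6 h to 48 h came next, 1 h stood apart above them, and untreated and 30 min were highest with overlapping arrays.

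Ppard, the widespread PPAR, fell by small amounts. Untreated arrays read 10.10, 10.29 and 10.27, with a mean of 10.22 ± 0.106 (SD, n = 3). At 2 h they read 9.94, 9.93 and 10.02, and at 6 h 9.95, 10.01 and 9.90. At 48 h the values were 9.87, 9.83 and 9.74, a mean of 9.81 ± 0.0648 (SD, n = 3). The untreated arrays spread more widely than those at 2 h, and the 2 h, 6 h and 48 h arrays all lay below them. The 30 min and 1 h arrays ranged from 9.95 to 10.20 and those at 12 h, 24 h and 36 h from 9.81 to 10.12. In order of level each group overlapped with its neighbour, from 48 h at the bottom to untreated at the top.

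Ppard fell by 0.40 ± 0.0727 on the log2 scale at 48 h (adjusted p = 0.00015), 24.3% lower than in untreated cells. Its changes at 6 h, 12 h and 36 h were -0.26, -0.27 and -0.28 (adjusted p = 0.012, 0.0104 and 0.00637), and its change at 24 h was -0.19 (adjusted p = 0.0713). The early change was -0.25 at 2 h (adjusted p = 0.0373). That 2 h call ended without any 1 of 5 of the 6 arrays compared: untreated replicate 2 (-0.22, adjusted p = 0.170) or 3 (-0.23, adjusted p = 0.148), or 2 h replicate 1 (-0.24, adjusted p = 0.112), 2 (-0.24, adjusted p = 0.138) or 3 (-0.28, adjusted p = 0.0551). The 6 h call ended without untreated replicate 2 (-0.23, adjusted p = 0.0678) or 3 (-0.24, adjusted p = 0.0568) or 6 h replicate 3 (-0.24, adjusted p = 0.0573), and the 12 h call without untreated replicate 2 (-0.23, adjusted p = 0.0596) or 3 (-0.24, adjusted p = 0.0503) or 12 h replicate 2 (-0.19, adjusted p = 0.089). The 24 h change was called without untreated replicate 1 (-0.25, adjusted p = 0.0269) or 24 h replicate 3 (-0.23, adjusted p = 0.0454). Centring each array on its median ended the calls at 2 h, 6 h, 12 h and 36 h (adjusted p = 0.123, 0.139, 0.0822 and 0.0832) and left the 48 h call. The 2 h call also ended in each model without replicate 1, 2 or 3 of every group (adjusted p = 0.0744, 0.367 and 0.250). In models without replicate 2 or without replicate 3 of every group, Ppard was not called at 6 h (adjusted p = 0.0907 and 0.212), nor at 12 h (adjusted p = 0.314 and 0.0891), nor at 36 h (adjusted p = 0.161 and 0.11). With only the 6 arrays compared it was not called at 12 h or 36 h (adjusted p = 0.0584 and 0.0618).

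Ppara, the PPAR of fatty acid oxidation, rose late. Untreated arrays read 4.69, 4.70 and 4.75, with a mean of 4.71 ± 0.0312 (SD, n = 3). At 1 h they read 4.39, 4.59 and 5.01, and at 2 h 5.25, 4.88 and 4.99. The 2 h arrays lay above the untreated ones without being called, and the arrays of the early groups overlapped with those at 30 min, 6 h and 12 h, which ranged from 4.69 to 5.08. At 24 h the values were 5.27, 5.41 and 5.43, and at 36 h 5.25, 5.67 and 5.10. At 48 h they were 6.06, 5.50 and 5.60, a mean of 5.72 ± 0.298 (SD, n = 3). The arrays at 24 h, 36 h and 48 h all lay above the untreated ones, and replicate 1 at 48 h was the highest of the 27.

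The difference of Ppara from untreated cells was 0.33 at 2 h (adjusted p = 0.276). It rose by 0.66 and 0.63 at 24 h and 36 h (adjusted p = 0.00271 and 0.00407). At 48 h it was 1.01 ± 0.155 (adjusted p = 2.13e-05), a ratio of 2.01, with a 95% confidence interval from 0.69 to 1.33 on the log2 scale. It stood at place 61 among all genes by the size of the rise at 48 h, and the step from 2 h to 48 h was 0.68 (adjusted p = 0.00185). The probe set had a mean of 5.05 over the 27 arrays, against a median of 4.76 over all genes, and its SE was the widest of the 6 receptors. Its untreated mean of 4.71 lay just below that median, and the deposited values give no background level for it. In order of level each group from 1 h to 24 h overlapped with its neighbour, and 48 h, the highest by mean, lay above the 24 h arrays but overlapped with those at 36 h. The 36 h call ended in the model without replicate 2 of every group (0.46, adjusted p = 0.119).

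Rxrg, the RXR known mainly from muscle and brain, was the receptor gene with the earliest rise. Untreated arrays read 6.98, 6.94 and 6.92, with a mean of 6.94 ± 0.0311 (SD, n = 3). The 30 min arrays read 7.10, 6.97 and 7.06, and the 1 h arrays 7.05, 7.16 and 7.40. At 2 h the values were 7.83, 7.79 and 8.01, a mean of 7.88 ± 0.114 (SD, n = 3). The 1 h arrays lay above the untreated ones without being called, and the 2 h arrays lay above all arrays of the earlier groups. At 6 h the values were 7.55, 7.91 and 7.71, and at 12 h 7.60, 7.83 and 7.58. Those at 24 h were 7.41, 7.46 and 7.48, and those at 36 h 7.56, 7.32 and 7.40. At 48 h they were 7.60, 7.29 and 7.12, a mean of 7.34 ± 0.241 (SD, n = 3). The 24 h arrays lay below the 12 h arrays, though that step was not called, and the 48 h arrays still lay above the untreated ones, with the widest spread of any Rxrg group.

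The change of Rxrg at 2 h was 0.93 ± 0.106 (adjusted p = 1.67e-06), a ratio of 1.91, with a 95% confidence interval from 0.71 to 1.15 on the log2 scale. It had rank 55 by p and place 21 by size of rise among all genes. The step from 1 h to 2 h was 0.67 (adjusted p = 0.000701), the same step in which Pparg fell. At 6 h and 12 h the changes were 0.78 and 0.73 (adjusted p = 9.57e-06 and 1.71e-05). On the log2 scale, 83.3% of the rise was thus kept at 6 h. The 24 h and 36 h changes of 0.50 and 0.48 were smaller (adjusted p = 0.000944 and 0.00142). By 48 h, 42.3% of the 2 h rise in log2 units was kept, a change of 0.39 (adjusted p = 0.00741). The step from 2 h to 48 h was -0.54 (adjusted p = 0.000412). The 48 h call ended without 48 h replicate 1, the highest of its group (0.26, adjusted p = 0.0806), and without replicate 1 or 2 of every group (0.28 and 0.41, adjusted p = 0.0836 and 0.0563). The step from 1 h to 2 h lost its call without replicate 2 of every group (0.69, adjusted p = 0.0619), and that from 2 h to 48 h without replicate 3 (-0.37, adjusted p = 0.0699).

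Rxra, the widespread RXR that partners PPARγ in fat cells, fell from 12 h on. Untreated arrays read 9.57, 9.61 and 9.45, with a mean of 9.54 ± 0.0796 (SD, n = 3). At 2 h they read 9.57, 9.53 and 9.58, within the untreated range. The 30 min and 1 h arrays ranged from 9.50 to 9.72 and overlapped with the untreated ones. At 6 h the values were 9.42, 9.34 and 9.24, and at 12 h 9.16, 9.21 and 9.35. Those at 24 h were 9.04, 9.13 and 9.27, and those at 36 h 9.34, 9.09 and 9.22. At 48 h they were 9.04, 9.15 and 9.24, a mean of 9.14 ± 0.103 (SD, n = 3). The order of level had a single gap, with 48 h, 24 h, 36 h, 12 h and 6 h below it and untreated, 2 h, 1 h and 30 min above it.

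The difference of Rxra from untreated cells was 0.018 and -0.21 at 2 h and 6 h (adjusted p = 0.948 and 0.0713). Its changes at 12 h, 24 h and 36 h were -0.30, -0.39 and -0.33 (adjusted p = 0.00594, 0.000429 and 0.00281). At 48 h it was lower by 24.1%, a change of -0.40 ± 0.0773 (adjusted p = 0.000344). The step from 2 h to 48 h was -0.42 (adjusted p = 0.000205). The 12 h call ended without replicate 1 or 2 of every group (-0.25 and -0.26, adjusted p = 0.0865 and 0.156), and the 36 h call without replicate 2 (-0.23, adjusted p = 0.181).

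Rxrb, the other widespread RXR, rose by small amounts from 6 h on. Untreated arrays read 7.34, 7.41 and 7.44, with a mean of 7.39 ± 0.0508 (SD, n = 3). The 30 min arrays read 7.57, 7.55 and 7.58, and the 2 h arrays 7.49, 7.36 and 7.43. The 30 min arrays all lay above the untreated ones, by 0.17 in the mean (adjusted p = 0.488), and the 2 h arrays overlapped with them. At 6 h the values were 7.61, 7.75 and 7.55, and the arrays at 12 h and 24 h ranged from 7.56 to 7.71. At 36 h they were 7.95, 7.82 and 7.76, a mean of 7.85 ± 0.0972 (SD, n = 3), and at 48 h 7.69, 7.71 and 7.72, a mean of 7.71 ± 0.014 (SD, n = 3). All arrays from 6 h on lay above the untreated ones, and those at 36 h lay above those at 48 h.

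The changes of Rxrb at 6 h, 12 h and 24 h were 0.24, 0.24 and 0.25 (adjusted p = 0.00667, 0.00728 and 0.00398). At 36 h the change was 0.45 ± 0.0615 (adjusted p = 4.05e-06), a ratio of 1.37, and at 48 h it was 0.31 (adjusted p = 0.000381), a ratio of 1.24. The 6 h call ended without 6 h replicate 2 (0.19, adjusted p = 0.0622) and without replicate 1 or 2 of every group (0.23 and 0.19, adjusted p = 0.0615 and 0.203). The 12 h call ended with only the 6 arrays compared (0.24, adjusted p = 0.052) and without replicate 2 or 3 of every group (0.24 and 0.22, adjusted p = 0.088 and 0.0955), and the 24 h call without replicate 2 (0.25, adjusted p = 0.0671). The step from 2 h to 6 h was 0.21 (adjusted p = 0.0324), and it was not called without 2 h replicate 2 or 3 (0.17 and 0.21, adjusted p = 0.162 and 0.0772) or 6 h replicate 1 or 2 (0.22 and 0.15, adjusted p = 0.0582 and 0.192). That step also lost its call without replicate 1, 2 or 3 of every group (0.25, 0.12 and 0.25, adjusted p = 0.0673, 0.548 and 0.110). Over the step from 2 h to 48 h Rxrb rose by 0.28 (adjusted p = 0.00126), a call lost in the model that left out replicate 2 (0.25, adjusted p = 0.068).

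**Figure D2:**
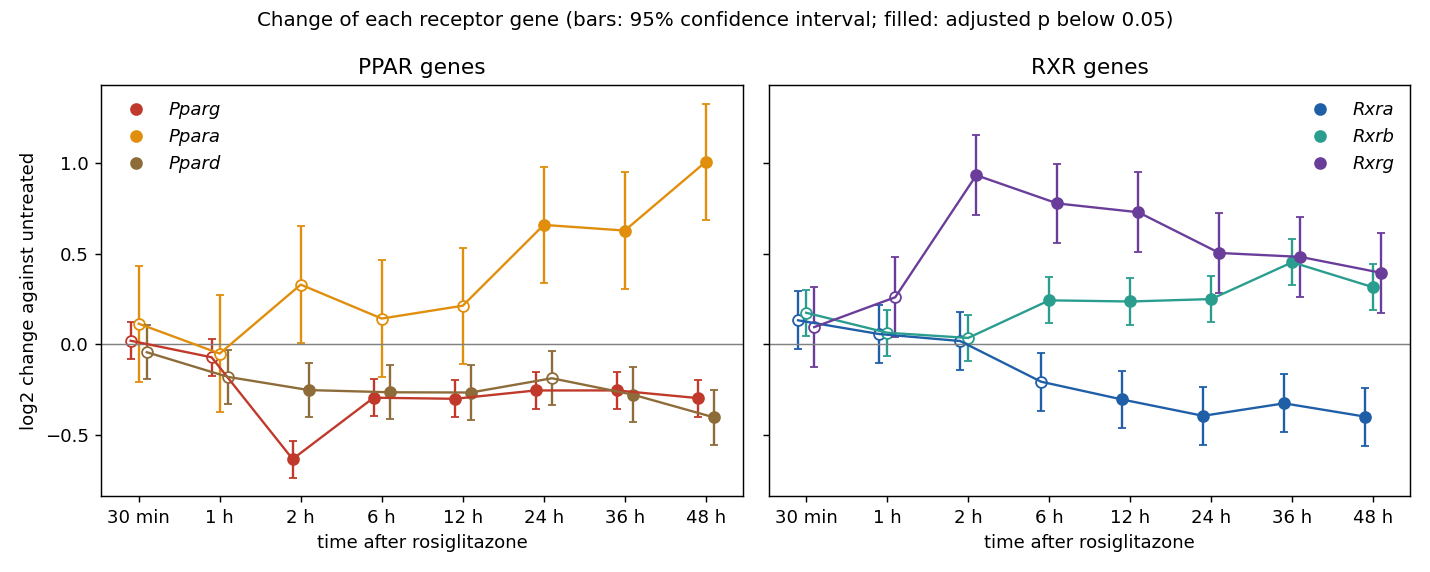
Log2 change against untreated cells (y axis) of the PPAR genes and the RXR genes at the 8 times (x axis, in order of time and not to scale). Points are limma estimates, filled where the adjusted p is below 0.05, and bars are 95% confidence intervals; Pparg is lowest at 2 h (-0.63) and Rxrg highest at 2 h (0.93), whereas Ppara is highest at 48 h (1.01).

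Between neighbouring times, receptors were called in the steps from 1 h to 2 h and from 2 h to 6 h. In the step from 1 h to 2 h 2 of 6 receptors were called (Pparg and Rxrg), beside 1.88% of all genes, and from 2 h to 6 h 2 of 6 (Pparg and Rxrb), beside 9.16%. None was called by limma in the other 5 steps. In order of time, 0.623%, 1.17%, 2.93%, 0.154% and 0.0160% of all genes were called there. Receptors with an unadjusted p below 0.05 numbered 0, 0, 2, 1 and 2, without a share of all genes to compare. Between 2 h and 48 h 5 of 6 were called, beside 23.7% of all genes, and the exception was Ppard at -0.15 (adjusted p = 0.148). The comparisons with untreated cells share the same 3 control arrays and are not independent of each other.

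Some receptor genes moved against each other. Over the 27 arrays Pparg and Rxrg had a Pearson r of -0.82, Ppara and Rxra of -0.73, and Rxra and Rxrb of -0.61. Ppard and Rxra had an r of 0.63 and Pparg and Ppard of 0.58. The arrays share the time groups, so these values describe the course and carry no test.

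Among the genes that changed over the course, those most like Pparg over the 27 arrays were Zbtb8a (r = 0.91), the Krüppel-like factor Klf6 (r = 0.90) and Arid5b (r = 0.88), a DNA-binding protein of the ARID family. Their changes at 2 h were -0.90, -1.35 and -0.59 (adjusted p = 1.91e-06, 6.59e-09 and 0.000131). Most opposite were Rpp14 (r = -0.85), a subunit of ribonuclease P, and Stard13 (r = -0.84). Both rose at 2 h, by 0.504 and 0.76 (adjusted p = 7.75e-06 and 5.12e-09). All these genes were chosen by r over the same arrays, so their p-values are no separate test of a shared course. The same holds for the genes most like or most opposite to the other receptors below.

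The genes most like Rxrg were Cyth1 (r = 0.94), an exchange factor for ARF GTPases, Prr5 (r = 0.92), a subunit of mTORC2, and Sh3tc1 (r = 0.91). These rose by 0.81, 0.66 and 0.75 at 2 h (adjusted p = 2.02e-07, 3.75e-07 and 4.31e-08). The interferon regulatory factor Irf2 and the pseudokinase Trib3 were most opposite, both with r = -0.93, and changed by -0.67 and -0.61 at 2 h (adjusted p = 2.07e-06 and 0.00019).

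**Figure D3:**
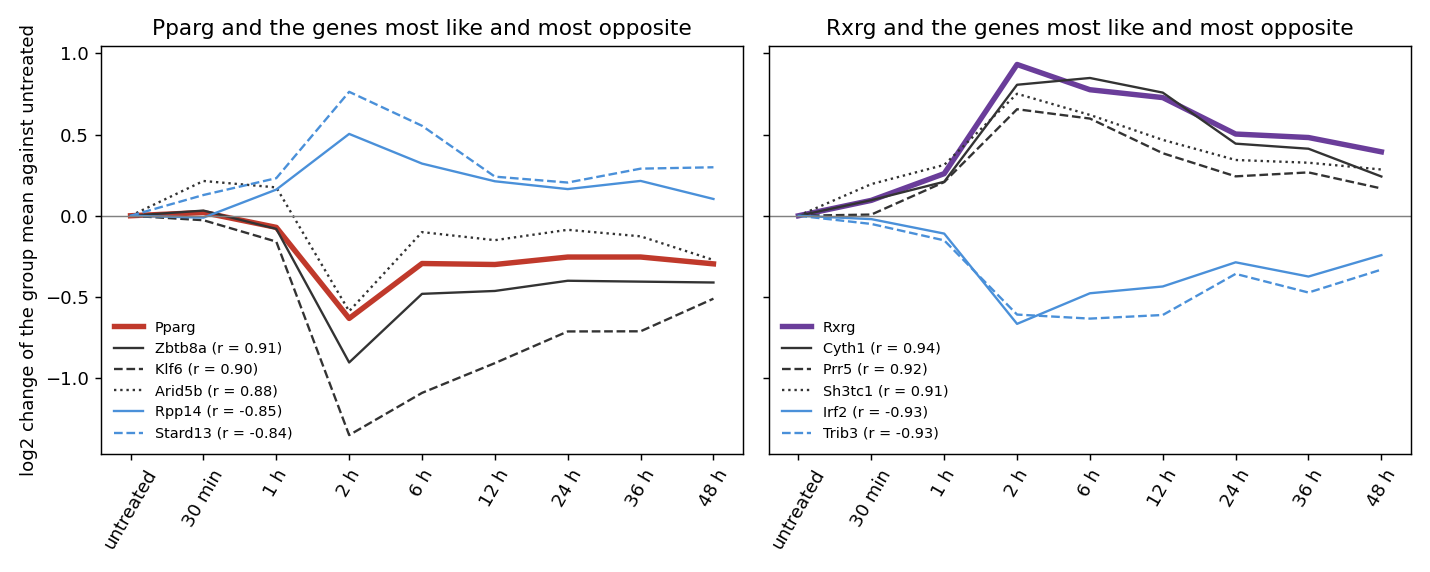
Log2 change of the group mean against untreated cells (y axis) at each time (x axis) for Pparg and Rxrg (thick lines) with the 3 genes most like each (dark lines) and the 2 most opposite (blue lines), chosen by Pearson r over 27 arrays. Klf6 falls further than Pparg at 2 h (-1.35 against -0.63), and Cyth1 stands at 0.81 beside Rxrg at 0.93 at 2 h.

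Ppara ran most closely with Acaa2 (r = 0.90), an enzyme of mitochondrial fatty acid oxidation, Rgs17 (r = 0.87), a regulator of G protein signalling, and the ceramidase Acer2 (r = 0.86). At 48 h these were higher by 0.54, 1.79 and 1.89 (adjusted p = 8.97e-07, 2.17e-11 and 2.10e-10). Carboxypeptidase E (Cpe) and Wfdc21 were most opposite, both with r = -0.87. The genes most like Rxra were Selenon (r = 0.96), a selenoprotein of the endoplasmic reticulum, Aldh3b1 (r = 0.96), an aldehyde dehydrogenase, and Actn1 (r = 0.95), an actin crosslinker. C9orf72 and Tapt1 were most opposite to Rxra, both with r = -0.96. For Ppard they were Fbrs, Mfsd12 and the Wnt co-receptor Lrp5 (r = 0.91, 0.88 and 0.87), against Rnmt and Tcim (r = -0.85 and -0.83). For Rxrb they were Slc35f6, Sbf1 and Elmod3 (r = 0.91, 0.90 and 0.90), against Ahnak and the growth factor Fgf2 (r = -0.89 and -0.88).

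Among receptors that share RXR with the PPARs, the retinoic acid receptors Rara and Rarg fell at 2 h, and Rara and Vdr were lower at 48 h. Of 13 listed, 10 were measured and 7 changed over the course (70.0%, beside 40.5% of all genes). Counts at 2 h were 0 higher and 2 lower, beside 3.04% and 2.87% of all genes called. At an unadjusted p below 0.05 the count was 3 of the 10, without a share of all genes to compare. At 48 h 1 was higher and 4 were lower, beside 12.6% and 11.4%. Their median change was 0.086 at 2 h and -0.16 at 48 h, where that of all genes was -0.0045 and 0.013. Centring each array on its median left 2 of them lower at 48 h.

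Rara, the retinoic acid receptor α, read 8.66, 8.85 and 8.81 in untreated cells, 8.44, 8.29 and 8.28 at 2 h and 8.04, 8.08 and 8.03 at 48 h. Its groups did not overlap, and its changes at these times were -0.43 and -0.72 (adjusted p = 0.000197 and 2.49e-08). Rarg, the retinoic acid receptor γ, was already lower at 1 h (-0.36, adjusted p = 0.0484). It fell by 0.61 ± 0.0904 at 2 h (adjusted p = 5.28e-05) and was near the untreated level at 48 h (-0.11, adjusted p = 0.45). The vitamin D receptor Vdr differed by 0.18 at 2 h (adjusted p = 0.515) and fell by 0.85 ± 0.126 at 48 h (adjusted p = 1.28e-05). Nr4a1, an immediate early receptor that can pair with RXR, was higher at 1 h (0.84, adjusted p = 0.0309). It differed by 0.49 at 2 h (adjusted p = 0.171) and was lower at 48 h, with a change of -0.54 (adjusted p = 0.0444). Nr1h3, the oxysterol receptor LXRα, fell by 0.27 at 48 h (adjusted p = 0.0219). The xenobiotic receptor Nr1i2 rose by 0.25 at 48 h (adjusted p = 0.00631) from a dim probe set with a mean of 2.68.

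Beyond the PPARs and RXRs, 36 of 43 nuclear receptor genes were measured, and 15 of them changed over the course, 41.7% beside 40.5% of all genes. Of the 36, 1 was higher and 3 were lower at 2 h, and 4 were higher and 6 lower at 48 h, beside 3.04%, 2.87%, 12.6% and 11.4% of all genes. Among the 42 receptor genes in all, Pparg had the lowest change at 2 h and Rxrg the highest, and at 48 h Ppara had the highest. Rarg, at -0.61 ± 0.0904, was close to Pparg at -0.63 ± 0.0493 at 2 h, so the order of these genes is not settled. Those called higher at 48 h were the mineralocorticoid receptor Nr3c2 (0.39), Nr6a1 (0.38), the oestrogen-related receptor Esrra (0.27) and Nr1i2. Those called lower were Vdr, Rara, Nr4a1, Esr1 (-0.33), Nr1h3 and Nr5a1 (-0.19), of which Esr1 and Nr5a1 had dim probe sets with means of 3.35 and 3.45. With each array centred on its median, 5 of the 36 were higher and 3 lower.

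**Figure D4:**
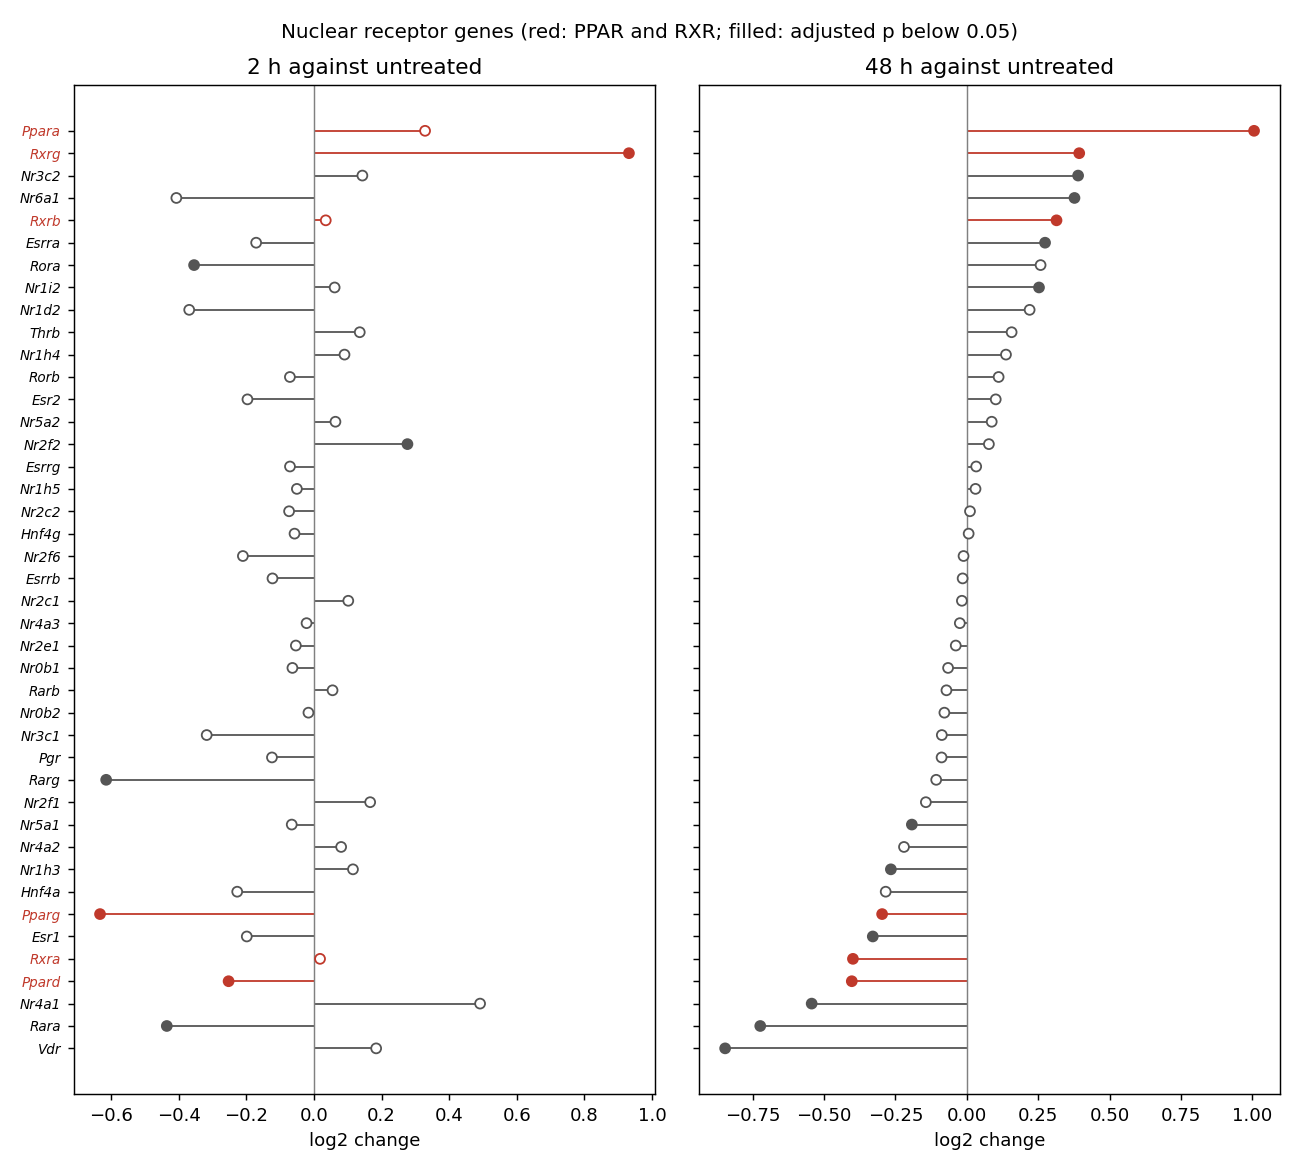
Log2 change against untreated cells (x axis) at 2 h and at 48 h for the 42 measured nuclear receptor genes (y axis), with PPARs and RXRs in red. Filled points have an adjusted p below 0.05; Pparg (-0.63) and Rxrg (0.93) stand at the low and the high end at 2 h, and Ppara (1.01) at the right at 48 h.

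Coactivators and corepressors are the proteins through which a PPAR and RXR pair changes transcription. Of 17 listed, 15 were measured and 10 changed over the course (66.7%, beside 40.5% of all genes). At 2 h 2 were higher and 1 lower, beside 3.04% and 2.87% of all genes, and the 2 higher and 3 lower at 48 h stood beside 12.6% and 11.4%. Ppargc1b, the coactivator PGC-1β, read 8.07, 8.17 and 8.26 in untreated cells, 8.88, 8.88 and 8.91 at 2 h and 8.99, 8.88 and 8.73 at 48 h. It rose by 0.73 ± 0.0847 at 2 h (adjusted p = 2.29e-06) and was higher by 0.70 at 48 h (adjusted p = 6.43e-07), with no overlap with the untreated arrays. Its relative Ppargc1a, the coactivator PGC-1α, differed by -0.38 at 2 h (adjusted p = 0.119) and rose by 0.93 ± 0.136 at 48 h (adjusted p = 9.21e-06). Nrip1, the corepressor RIP140, was higher by 0.33 at 2 h (adjusted p = 0.0157) and lower by -0.44 at 48 h (adjusted p = 0.000284). The coactivator Ncoa6 changed by -0.32 at 2 h (adjusted p = 0.0154), and Ncoa2 by -0.19 at 48 h (adjusted p = 0.00917).

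Factors known to activate Pparg transcription were called in both directions. All 15 listed were measured, 13 changed over the course (86.7%, beside 40.5% of all genes), and at 2 h, when Pparg was lowest, 3 were higher and 2 lower, beside 3.04% and 2.87%. The C/EBP factors Cebpb and Cebpa, which drive Pparg during fat cell formation, were among the higher ones, with changes of 0.62 ± 0.101 and 0.39 ± 0.0754 (adjusted p = 0.000219 and 0.00124). Klf15, a Krüppel-like factor, and Egr2, also called Krox20, were the lower ones, with changes of -0.40 and -1.31 (adjusted p = 0.000399 and 0.000172). At 48 h Klf15, Egr2 and Srebf1, which encodes the lipogenic factor SREBP-1, were lower, by -0.59, -0.72 and -0.41 (adjusted p = 5.04e-07, 0.0134 and 1.57e-05), and 1 of the 15 was higher, beside 11.4% of all genes lower and 12.6% higher. Centring raised that count to 3.

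Of the 6 listed repressors of Pparg, 5 were measured, 4 changed over the course (80.0%, beside 40.5% of all genes), and at 2 h 2 were higher and 1 lower, beside 3.04% and 2.87%. Foxo1 rose by 0.25 at 2 h (adjusted p = 0.00714) and was higher by 0.21 at 48 h (adjusted p = 0.00864), and the orphan receptor Nr2f2, COUP-TFII, rose by 0.28 at 2 h (adjusted p = 0.0282). Gata3 changed by -0.42 at 2 h (adjusted p = 0.0361). Klf2 differed by -0.20 at 2 h (adjusted p = 0.276). Of 14 listed genes for enzymes that modify the PPARγ protein, 10 were measured and 4 changed over the course (40.0%, near the 40.5% of all genes). By limma 0 of them were called at 2 h, beside 5.91% of all genes. At an unadjusted p below 0.05 the count was 5, without a share of all genes to compare. At 48 h the ubiquitin ligase genes Siah2 and Fbxo9 were higher by 0.37 and 0.25 (adjusted p = 0.000117 and 0.0278), and Nedd4 and Mkrn1 changed by -0.26 and -0.20 (adjusted p = 0.0015 and 0.0463).

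Retinoids are the source of ligands for RXRs and retinoic acid receptors. Of 18 listed genes that handle them, 17 were measured, 5 changed over the course (29.4%, beside 40.5% of all genes). At 2 h 1 was higher, beside 3.04% of all genes, and at 48 h 2 were higher and 2 lower, beside 12.6% and 11.4%, which is near the share over all genes. Dhrs3, which turns retinal back to retinol, was higher by 0.28 and 0.26 at 2 h and 48 h (adjusted p = 0.0312 and 0.016). Retsat, a retinol saturase, rose by 0.30 at 48 h (adjusted p = 0.000321). Rdh11, a retinol dehydrogenase, and Bco1, which cleaves β-carotene, changed by -0.30 and -0.54 at 48 h (adjusted p = 0.00174 and 0.00183).

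Of 12 listed genes that make or carry PPAR ligands, 11 were measured and 7 changed over the course (63.6%, beside 40.5% of all genes). At 2 h 1 was higher, beside 3.04% of all genes, and 3 were higher and 2 lower at 48 h, beside 12.6% and 11.4%. Xdh, xanthine dehydrogenase, which in mouse cells acts upstream of PPARγ activity, read 8.86, 8.94 and 8.90 in untreated cells and 8.04, 8.10 and 8.12 at 48 h. These arrays did not overlap, and the change was -0.81 ± 0.0933 (adjusted p = 2.93e-07). Fabp5, a fatty acid carrier known to bring ligand to PPARδ, rose by 0.39 at 48 h (adjusted p = 2.56e-05). The prostaglandin genes Ptgs2 and Ptges were higher by 0.58 and 0.22 at 48 h (adjusted p = 0.000355 and 0.0283), and Ptges was already higher by 0.27 at 2 h (adjusted p = 0.0265). Alox5 changed by -0.21 at 48 h (adjusted p = 0.0448) from a dim probe set with a mean of 3.19. Centring gave 5 higher and 1 lower at 48 h.

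Some known target genes of the receptors were higher at 2 h, when Pparg mRNA was lowest, and most were not called at that time. Of 24 listed PPAR targets of fat storage, 23 were measured, and 8 were higher, 0 lower and 15 not called at 2 h, when 3.04% and 2.87% of all genes were. At 48 h 11 were higher and 1 lower, beside 12.6% and 11.4% of all genes, with a median change of 0.17 (0.013 for all genes). Of 26 targets of fatty acid oxidation, 20 were measured. At 2 h 3 were higher, 0 lower and 17 not called, where 3.04% of all genes were higher and 2.87% lower. At 48 h 12 were higher and 1 lower, beside 12.6% and 11.4%. Their median changes were 0.039 at 2 h and 0.32 at 48 h. Pck1, the enzyme that supplies glycerol for fat storage and a known PPARγ target, changed by 1.45 ± 0.115 (adjusted p = 5.12e-09) at 2 h and was 2.03 above untreated cells at 48 h (adjusted p = 2.26e-12). The mitochondrial carnitine carrier Slc25a20 differed by 0.31 at 2 h (adjusted p = 0.0992) and was higher by 0.90 at 24 h (adjusted p = 8.27e-07). Ppara was first called at 24 h, and a link between Slc25a20 and Ppara was not tested.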

How the data were processed

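RNA of 27 samples was hybridised to Affymetrix gene arrays. The authors deposited 1 log2 intensity for each probe set and sample, with values from 1.67 to 13.19. Partek software and RMA (background correction, normalisation and probe summary) are named, without versions, in the submitters' processing notes. Of 28815 probe sets, 21153 carried 1 gene symbol, 1867 several and 5795 none; the probe set with the highest mean stood for a gene, giving 18781 genes, dim ones included. The build of the array annotation is not given in the sources used here, and coordinates come from RefSeq tables (GRCm38.p6).

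In R 4.3.3, limma 3.58.1 fitted a mean for each group (lmFit, eBayes), without covariates, with two-sided tests of each time against untreated, of 8 steps between times, and an F-test over the 8 comparisons with untreated. P-values were adjusted by Benjamini-Hochberg over all genes, and calls are at 0.05. The code was tested on simulated data.

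The members and gene lists were chosen with earlier results of these data known. Named were the 6 receptors, up to 5 genes per list by smallest p among those called, and for each receptor the 3 genes with the highest and the 2 with the lowest correlation. Nr1h3 and the nuclear receptors beyond RXR partners are named outside that rule, from a list added after results were seen. Alternatives were a replicate block, centring, quantile normalization, trended and robust variance, array weights, means of probe sets, genes above the median mean (4.76), only the 6 arrays compared, and leaving out replicates or single arrays. Same-numbered replicates did not deviate together (median correlation -0.13 over 108 pairs), so the numbers were not taken to pair the samples. Correlations above 0.1 were found in 3 of these 108 pairs and in 70 of 216 pairs with different numbers. Arrays may thus share deviations that the numbers do not follow. The fit without covariates does not model them, and their source was not tested.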

Additional observations from a re-analysis of the deposited data

How the results depend on the processing

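The 72 receptor results counted here leave out the steps between times in which no receptor was called. The other settings gave 786 values for them. Of these, 10 changed sign, 0 of them where the change had been called, 39 lost the call and 10 gained it. The remaining 727 kept both direction and side of the threshold. Leaving out each array in turn, chosen after seeing the data, gave 1944 values, of which 1920 kept both, 17 lost the call, 2 gained it and 5 changed sign. The 2 h change of Ppard was not called with a replicate block (-0.25, adjusted p = 0.0698), with centring (-0.23, adjusted p = 0.123) or with only the 6 arrays compared (-0.25, adjusted p = 0.072), and lay between -0.31 and -0.20 without replicates. The block also ended the call of the Rxrb step from 2 h to 6 h (0.21, adjusted p = 0.0622) and changed no other receptor call. Without replicates, the 48 h change of Rxrg lay between 0.26 and 0.501 and the F of Ppard between 3.12 and 6.55. Changes not called turned sign with quantile normalization for Rxra at 2 h (-0.000551) and with centring for Ppard from 2 h to 6 h (0.050). Without a replicate number or a single array they did so for Rxra at 2 h (-0.038 to 0.065), Rxrb at 2 h (-0.025 to 0.074), Pparg at 30 min (-0.0019 to 0.035), Ppard at 30 min (-0.11 to 0.0032), Ppara at 1 h (-0.22 to 0.085), Rxra from 1 h to 2 h (-0.10 to 0.014), Rxrb from 1 h to 2 h (-0.061 to 0.0045), Ppara from 2 h to 6 h (-0.37 to 0.0036) and Ppard from 2 h to 6 h (-0.056 to 0.043). With only the 6 arrays compared, Ppard at 12 h and 36 h, Rxrb at 12 h and Rxrb from 2 h to 6 h also lost their calls (adjusted p = 0.0584, 0.0618, 0.052 and 0.113). Ppard at 24 h gained a call with quantile normalization, trended variance, array weights and genes above the median mean (adjusted p = 0.0135, 0.0342, 0.0105 and 0.0347). Calls of Rxra at 6 h were gained with quantile normalization, trended variance and genes above the median mean (adjusted p = 0.042, 0.0405 and 0.0351). The Rxra step from 2 h to 6 h was -0.22 (adjusted p = 0.0721). It gained a call with trended variance, array weights and genes above the median mean (adjusted p = 0.0384, 0.0365 and 0.0348). The causes were not tested.

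Centring moved list counts at 48 h to 2 lower RXR partners, 5 higher and 1 lower genes of ligand supply and 3 higher activators. It gave 3 higher and 2 lower coregulators, against 2 higher and 3 lower before, and 3 higher and 1 lower modifiers. Fat storage targets went to 13 higher, oxidation targets to 0 lower and other receptors to 5 higher and 3 lower. At 2 h, quantile normalization gave 2 higher ligand supply genes, 2 higher activators, 0 lower repressors, 9 higher fat storage targets and 4 lower other receptors. At 48 h it gave 5 higher ligand supply genes, 4 lower activators, 1 higher modifier and 13 higher fat storage targets. Other receptors were then 3 higher and 5 lower. Array medians moved by at most 0.086 from untreated, at 6 h. The probe sets of Nr1i2, Alox5, Esr1 and Nr5a1 have means well below the median gene (4.76), and the deposited values give no background level for them. Ppara had an untreated mean (4.71) just below that median, so how far above background its rise started is not known. No control at a later time was analysed here, and isoforms of Pparg were not separated.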
